A study of Homo sapiens and Mus musculus with 12 samples.

Results

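Genes named ZNF followed by a number were followed through polysome profiling of A375, a human melanoma cell line. They were selected on symbol and on level: of 401 such symbols in the A375 table, the 141 whose TPM averaged 5 or more across the 6 A375 libraries were kept. The input and gradient values from the same libraries put the family forward for description, so they too are given as a description. TPM is read density per transcript length, scaled so that a library sums to 1000000. Rows with another symbol, such as antisense RNAs, pseudogenes and ZNF genes with a letter suffix, were left out (89 rows). In polysome profiling, lysate is spun on sucrose and an mRNA travels farther the more ribosomes it carries. The series describes parental cells and drug-tolerant persister cells, which survive a drug without stable resistance. The labels call the A375 states S and P without saying which letter stands for which cells, and they name no drug, dose or time. Each state gave 1 input library (RNA before the gradient), 1 library of monosome fractions (the single-ribosome peak with several fractions that precede it) and 1 of polysome fractions (from the bottom of the gradient). Each group is therefore 1 library of a cell line: no difference has a replicate check, and no test, p-value or standard error is given.

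Most ZNF genes encode C2H2 zinc finger proteins, in which a pair of cysteines and a pair of histidines hold a zinc ion and each finger reads a few DNA bases. Many also carry a KRAB domain, which recruits the corepressor TRIM28 and the histone methyltransferase SETDB1 to silence retroelements and other targets. KRAB genes arose by repeated duplication and lie in clusters, many of them on chromosome 19. A minority of ZNF proteins work elsewhere, on RNA, on the mitotic spindle or on the ribosome.

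The coding sequence shows how alike the family is and how far its base composition spreads. Fingers are joined by a short conserved linker of 5 residues. The stretches below each encode 1 finger, in lower case, and the linker after it, in capitals. They come from members toward each end of the order by which the polysome-to-monosome ratio differed between S and P, described further on. From each end, the first 4 members that hold a finger spaced by 2, 12 and 3 residues, with its linker, within 1 coding exon were taken, so members without such a stretch were passed over. The stretches were read 5′ to 3′ on the coding strand from GENCODE release 29 transcripts (GRCh38). The first 4 were reached from the end where the ratio was lowest in S relative to P, passing over ZNF207, ZNF217, ZNF148, ZNF644, ZNF503 and ZNF598.
ZNF124: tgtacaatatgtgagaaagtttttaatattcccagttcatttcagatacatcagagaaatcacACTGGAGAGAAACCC
ZNF260: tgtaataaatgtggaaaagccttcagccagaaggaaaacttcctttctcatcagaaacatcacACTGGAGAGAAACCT
ZNF700: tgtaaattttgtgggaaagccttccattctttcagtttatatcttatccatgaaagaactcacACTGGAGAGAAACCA
ZNF12: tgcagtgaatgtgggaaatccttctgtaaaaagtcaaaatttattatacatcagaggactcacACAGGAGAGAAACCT
The next 4 were reached from the end where the ratio was highest in S relative to P, passing over ZNF688.
ZNF513: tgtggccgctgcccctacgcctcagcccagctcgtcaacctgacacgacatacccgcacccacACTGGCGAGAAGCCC
ZNF771: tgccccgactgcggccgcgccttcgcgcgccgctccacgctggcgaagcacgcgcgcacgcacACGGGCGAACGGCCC
ZNF692: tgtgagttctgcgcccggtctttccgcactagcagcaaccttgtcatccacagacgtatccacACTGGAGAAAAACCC
ZNF222: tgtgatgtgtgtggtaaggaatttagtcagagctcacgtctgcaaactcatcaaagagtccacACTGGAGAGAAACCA

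Each stretch lies within 1 coding exon: ZNF124 at chr1:247157175-247157252 (minus strand), ZNF260 at chr19:36514909-36514986 (minus), ZNF700 at chr19:11948694-11948771 (plus), ZNF12 at chr7:6692054-6692131 (minus), ZNF513 at chr2:27378651-27378728 (minus), ZNF771 at chr16:30417606-30417683 (plus), ZNF692 at chr1:248850687-248850764 (minus) and ZNF222 at chr19:44032197-44032274 (plus). The 78 bases of ZNF124 and ZNF700 are the same at 57 positions, those of ZNF260 and ZNF771 at 30. GC content was 34.6% to 39.7% in the first 4 and 44.9% to 79.5% in the other 4. This split does not hold for every member at the ends of the order. Of those passed over at the low end, ZNF503 has 70.1% GC in its whole coding sequence, ZNF598 66.0%, ZNF217 49.0% and ZNF207 48.3%. ZNF148 (41.5%) and ZNF644 (38.0%), also passed over there, lie on the low side. ZNF688, passed over at the high end, lies on the high side (67.75%). Coding GC over all members is described further on. Reads of similar members can be exchanged in a quantification, so a single member is less certain than the group. Such exchange was not tested here. The pairs shown matched at 57 of 78 positions at most and do not show how often it occurred.

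All 141 members matched a GENCODE coding transcript, 1 of them through another symbol. The finger spacing (2 to 4 residues between the cysteines, 12 between the pairs, 3 to 5 between the histidines) was found a median of 8 times per protein, from 0 in 4 members to 23 in ZNF721 and ZNF814. At least 1 linker was found in 94 members, and a pattern of letters for the KRAB domain in 49, of which 22 are on chromosome 19. The pattern search is not a domain annotation and misses divergent domains. Chromosome 19 held 41 members in all.

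The ZNF mRNAs were of low abundance. The lowest, median and highest level was 0.959, 9.64 and 132 TPM in S input and 3.25, 12.2 and 133 TPM in P input. Summed over the 141 genes, they made up 0.299% of the listed TPM in S input and 0.322% in P input. The mean was under 10 TPM for 78 members and at least 50 TPM for 8. In the monosome libraries, 29 members were under 3 TPM in S and 23 in P, so ratios to the monosome library rest on the smallest values. Sequencing depth is unknown, since TPM keeps none. Just inside the limit were ZNF652, ZNF627 and ZNF346, with means of 5.01, 5.05 and 5.06 TPM, and just outside were ZNF213, ZNF521 and ZNF436, with 4.86, 4.86 and 4.81 TPM. The mean over all 6 libraries chose the members, so their level is a description.

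Across all libraries, 6 of 8 melanocytic marker genes were listed (all but MLANA and TYR), at a sum of 430 to 864 TPM in the S libraries and 259 to 586 TPM in the P libraries. The genes went both ways in input TPM. DCT (249 in S and 25.2 in P), SOX10 (217 and 156), PMEL (39.5 and 6.49) and TYRP1 (1.01 and 0.221) were higher in S. MITF (43.0 and 66.6) and S100B (314 and 332) were lower. Of the leukocyte, endothelial, keratinocyte and fibroblast markers, 1 of each list was listed, at no more than 5.15 TPM in any library. The proliferation genes MKI67, TOP2A, CDC20 and PLK1 summed to 6.14 TPM in S input and 611 TPM in P input. These genes thus differ between the S and P libraries along with every S against P value below, and their part in those values was not tested. In bulk RNA, fewer cells that make a transcript and less of it per cell cannot be told apart.

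Values were compared as log2(TPM + 1), which understates the difference of low genes. The 9132 A375 genes that average 5 TPM or more had medians off 0: -0.22 for S against P in input, 0.89 for polysome against monosome in S, 1.31 for the same in P, and -0.33 for the ratio of S against that of P. Gene values below are relative to this median gene, taken anew for each comparison, and a gene is counted as higher or lower at 2-fold or more. TPM gives the share of a gene in a library and not an amount of RNA.

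S was first set against P in input RNA, which asks how the ZNF mRNA content of the cells differed between the states. The family stayed close to the median gene: 118 of 141 members were within 2-fold of it and the median of the members was -0.04. In S, 15 members were higher (10.6%), where 14.9% of all genes were, and 8 were lower (5.67%), where 16.1% were. Quartiles of the members were -0.43 and 0.37, against -0.65 and 0.63 for all genes. Among the 113 members with a mean under 20 TPM, 9 were higher (7.96%) and 7 lower (6.19%), and of the 4411 genes from 5 to 20 TPM 13.7% and 15.3% were, so the shares stayed below those of other genes of that level; this range was chosen after seeing the data. As deposited, without the median gene, 12 members were higher and 17 lower (11.2% and 21.5% of all genes).

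**Figure D1:**
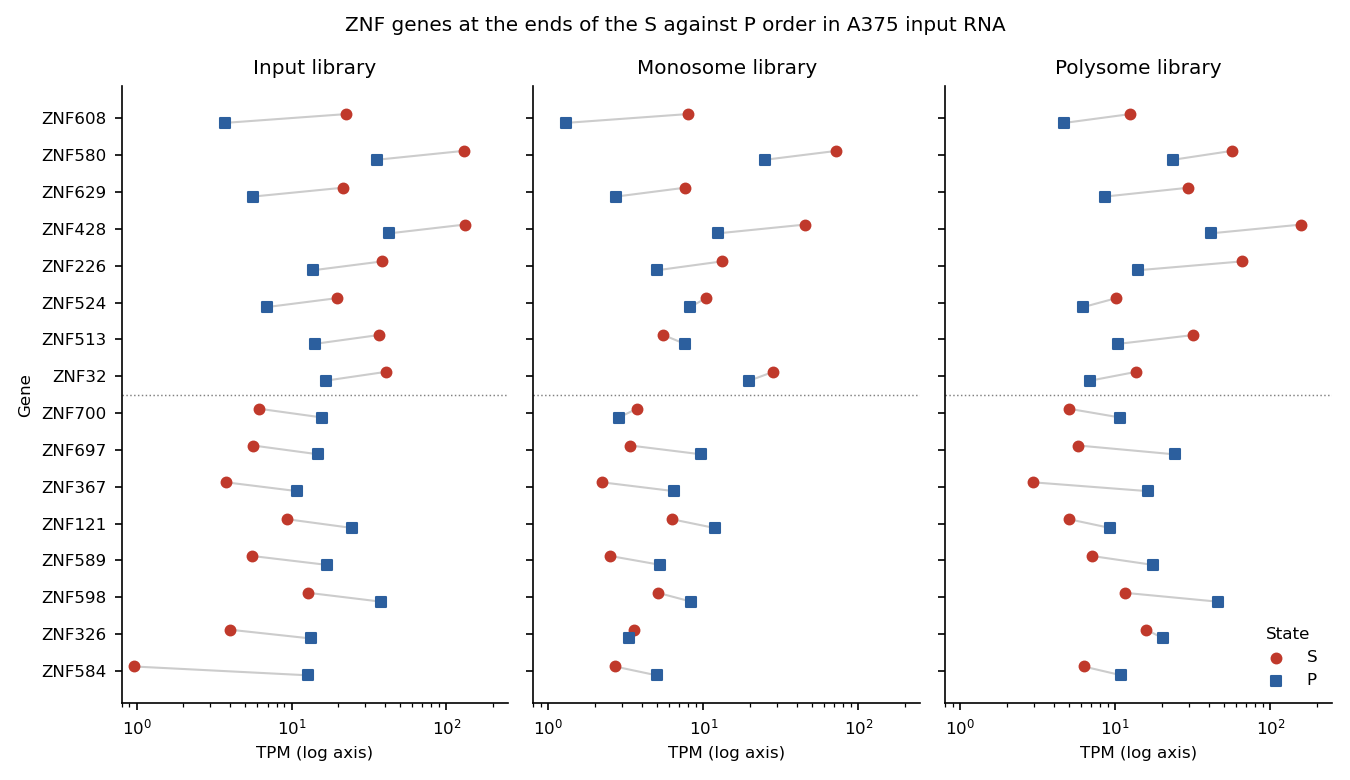
TPM on a log axis of the 8 ZNF genes highest (above the dotted line) and the 8 lowest (below it) in S relative to P input, in the input, monosome and polysome libraries. Circles are S and squares are P, 1 library each. The upper genes were higher in S in input and polysomes, while ZNF513 was at 5.51 TPM in S monosomes and 7.60 TPM in P monosomes; ZNF584 stands out at 0.959 TPM in S input alone.

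ZNF608 led the members that were higher in S. This gene (chromosome 5, 124636913 to 124748807 in GRCh38) had 22.6 TPM in S input, 7.93 in S monosomes and 12.5 in S polysomes, against 3.71, 1.29 and 4.69 TPM in the P libraries (2.54 in input). All 3 S libraries were above all 3 P libraries. The P libraries were all under 5 TPM, so ZNF608 passed the limit on the mean only through S. Next was ZNF580 (chromosome 19, 55635016 to 55643469) with 129, 72.1 and 56.4 TPM in S input, monosomes and polysomes and 35.7, 25.1 and 23.6 TPM in P (2.04 in input). ZNF580 overlaps ZNF581 and CCDC106 on the same strand, so the split of reads between them is uncertain. ZNF629 had 21.5 TPM in S input and 5.65 in P input (1.98). ZNF428 had 132 TPM in S input and 42.6 in P input (1.82), and was likewise higher in S monosomes (45.4 against 12.3 TPM) and polysomes (159 against 41.1 TPM). Its locus overlaps SRRM5 on the opposite strand, and no source used here states whether reads were assigned by strand. The KRAB gene ZNF226 had 38.6 TPM in S input and 13.9 in P input (1.63), with the highest S against P value of all members in polysomes (66.1 against 14.1 TPM, 2.39). ZNF524, which encodes a telomere-binding protein, had 19.5 TPM in S input and 6.96 in P input (1.58). The last of the upper 8 were ZNF513 (36.6 against 14.1 TPM, 1.53), a gene linked to inherited retinal dystrophy, and ZNF32 (40.6 against 16.6 TPM, 1.46).

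The fraction libraries were compared between the states in the same way. In monosomes, 17 members were higher in S and 11 lower (12.4% and 13.4% of all genes), and in polysomes 18 were higher and 7 lower (16.7% and 15.5%). Among members from 5 to 20 TPM, 12 were higher and 10 lower in monosomes (11.5% and 13.8% of all genes), and 12 and 6 in polysomes (14.6% and 16.5%). Of the 15 members higher in S input, all 15 were above the median gene in polysomes too and 11 past 2-fold, whereas 11 were above it in monosomes and 7 past 2-fold. These 3 comparisons use different libraries of the same cells. ZNF226, ZNF428, ZNF580, ZNF608, ZNF629 and ZNF827, which encodes a factor that brings chromatin remodellers to telomeres, were past 2-fold in all of them, or 4.26% of members against 6.68% of all genes. ZNF608 and ZNF827 were under 5 TPM in all P libraries and passed the limit on the mean through S. ZNF775 also passed through S, with 3.25, 1.84 and 5.11 TPM in P input, monosomes and polysomes. These genes are among the 15 and the 11. For such genes the filter favours a difference in this direction, so agreement between libraries is no check.

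The lowest member in S input was ZNF584, a KRAB gene (chromosome 19, 58401504 to 58418327). It had 0.959 TPM in S input and 12.8 TPM in P input (-2.60). Its other libraries differed less, with 2.68 TPM in S monosomes and 4.99 in P monosomes, and 6.24 TPM in S polysomes and 10.95 in P polysomes, so the low value rests on the S input library. ZNF326, a subunit of a complex that links transcript elongation to splicing, had 3.98 TPM in S input and 13.4 in P input (-1.31) but 3.59 against 3.31 TPM in monosomes. ZNF598, the ubiquitin ligase that marks collided ribosomes (chromosome 16, 1997654 to 2009823), had 12.8 TPM in S input and 37.8 in P input (-1.27), and 11.5 against 45.8 TPM in polysomes. ZNF589 (5.58 against 16.8 TPM, -1.22) and ZNF121 (9.32 against 24.7 TPM, -1.10) followed. ZNF367 had 3.79 TPM in S input and 10.9 in P input (-1.10) and was lower in monosomes (2.22 against 6.48 TPM) and polysomes (2.96 against 16.3 TPM). ZNF697 (5.66 against 14.9 TPM, -1.04) was the other member past 2-fold in all 3 libraries, and ZNF700 (6.14 against 15.8 TPM, -1.02) the last of the lowest 8. Those 2 genes are 1.42% of members, where 7.01% of all genes were lower in all 3 comparisons. ZNF367 was under 5 TPM in all S libraries and passed the limit on the mean through P. ZNF584, with 0.959 to 6.24 TPM in the S libraries, also passed through P. ZNF697 had 3.37 to 5.77 TPM and ZNF700 3.73 to 6.14 TPM in the S libraries, near the limit. The filter thus favours their direction, and agreement between libraries is no check.

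Members with roles outside of DNA binding, such as on RNA or ribosomes, were taken from a list of 16 genes, of which 13 are members. In input, 2 of the 13 were lower in S, ZNF598 and ZNF326, and none higher (median -0.52); the 15.4% lower is close to the 16.1% of all genes. ZNF622, a factor that matures the large ribosomal subunit in the cytoplasm (chromosome 5, 16451519 to 16465792), had 46.7 TPM in S input and 108 in P input (-0.98), and ZNF330, a nucleolar protein, had 31.5 against 68.8 TPM (-0.89). ZNF593, whose yeast counterpart also serves large subunit production, had 98.6 TPM in S input and 90.8 in P input (0.34). ZNF207, which helps to build the mitotic spindle, had 79.6 TPM in S input and 133 in P input (-0.52). The others of the list were within 2-fold: ZNF830 (-0.67), the RNA-binding ZNF106 (-0.53), ZNF638 (-0.41), ZNF346 (-0.26), a binder of double-stranded RNA, the SUMO ligase ZNF451 (-0.24), ZNF706 (-0.16) and ZNF277 (0.51).

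Of 34 listed transcription factors and cofactors, 22 are members. ZNF827 (1.34; 10.4 TPM in S input and 4.21 in P input) and ZNF644 (1.09; 23.3 against 12.2 TPM), a partner of histone H3 lysine methyltransferases, were higher in S input (9.09%, against 14.9% of all genes) and ZNF367 was lower (4.55%, against 16.1%). The remaining 19 lay between -0.97 and 0.60, and the median of the 22 was -0.06. ZNF532 (5.87 TPM in S input and 14.7 in P input, -0.97) was at the low end, while its relatives ZNF592 (0.31) and ZNF687 (0.37) were above the median gene. ZNF146 (40.8 against 88.2 TPM, -0.88), ZNF274 (5.24 against 11.2 TPM, -0.75), which brings SETDB1 to ZNF genes, ZNF143 (6.33 against 12.5 TPM, -0.66), a promoter-binding activator, and ZNF395 (-0.63) were below it by less than 2-fold. ZNF217, an oncogene amplified in breast cancer, was at -0.10, ZNF148 at -0.03, ZNF281 at -0.41, ZNF410, the activator of CHD4, at -0.08, ZNF384 at 0.09, ZNF263 at 0.00, ZNF639 at 0.02, ZNF24 at 0.27, ZNF335 at -0.46, ZNF365 at -0.09, ZNF516 at 0.21 and ZNF76 at 0.60.

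The machinery that KRAB proteins recruit was set beside its ZNF genes. Of a list of 21 symbols, 20 average 5 TPM or more; 3 were lower in S input (15%, close to the 16.1% of all genes) and none higher (median -0.45). The maintenance factors of DNA methylation UHRF1 (4.54 TPM in S input and 54.0 in P input, -3.10) and DNMT1 (12.7 against 75.7 TPM, -2.27) and the deacetylase HDAC2 (17.4 against 93.3 TPM, -2.14) were the 3. TRIM28 had 147 TPM in S input and 331 in P input (-0.95), and SETDB1 8.28 against 13.5 TPM (-0.43). The 49 members with a KRAB match had a median of -0.12, with 2 higher (4.08%) and 3 lower (6.12%), and the 92 without one a median of 0.01, with 13 higher (14.1%) and 5 lower (5.43%). Of all genes 14.9% were higher and 16.1% lower.

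**Figure D2:**
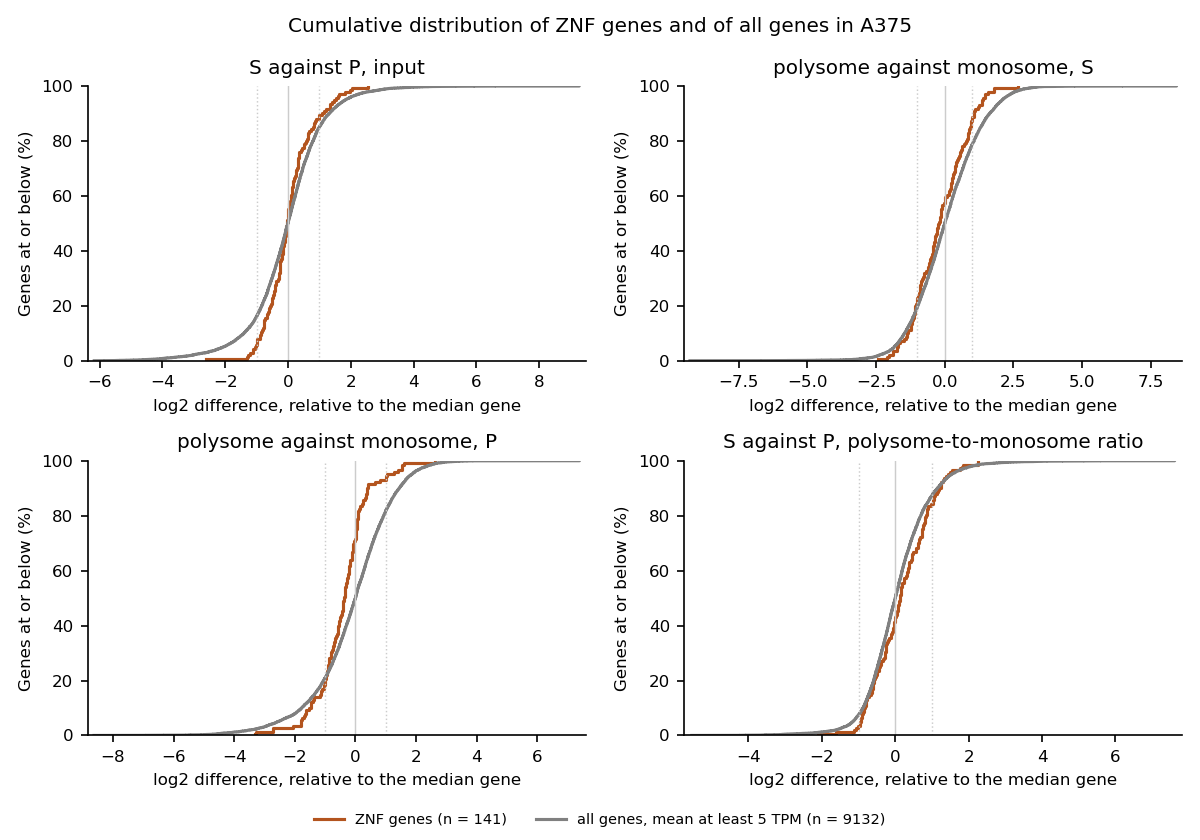
Cumulative share of genes (%) against the log2 difference relative to the median gene, for 141 ZNF genes and all 9132 genes averaging 5 TPM or more, in 4 comparisons. Dotted lines mark 2-fold. The ZNF curve is steeper in input (median -0.04). For polysome against monosome in P (median -0.38) it lies left of all genes from about the lower quartile upward. At 2-fold lower it does not, with 19.1% of members and 21% of all genes.

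Polysome and monosome libraries were next compared within each state, to place the ZNF mRNAs on the gradient. In S, 16 members were higher in polysomes relative to the median gene (11.3%, against 21.2% of all genes) and 32 lower (22.7%, against 19.5%), with a median of -0.20. In P, 9 were higher (6.38%, against 18.3%) and 27 lower (19.1%, against 21%), with a median of -0.38. The level of the genes goes with these values: all genes from 5 to 20 TPM had a median of -0.21 in S and -0.18 in P, and the 113 members of that range -0.20 and -0.38. In that range 12 members were higher and 26 lower in S (13.1% and 22.5% of all genes), and 4 were higher and 21 lower in P (9.52% and 22%). The median of the members in S was thus close to that of other genes of this range, and in P it was lower. Level within the range was not matched, and 78 members averaged under 10 TPM. As deposited, 56 members were higher in polysomes and 3 lower in S (46.4% and 4.46% of all genes), and 64 and 4 in P (60.4% and 6.25%). With the median taken over the 12638 genes of at least 1 TPM, 29 members were higher and 19 lower in S (26.7% and 14.3% of the 9132 genes) and the median of the members was 0.02, so the side on which the family lies in S depends on the genes it is set against.

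**Figure D3:**
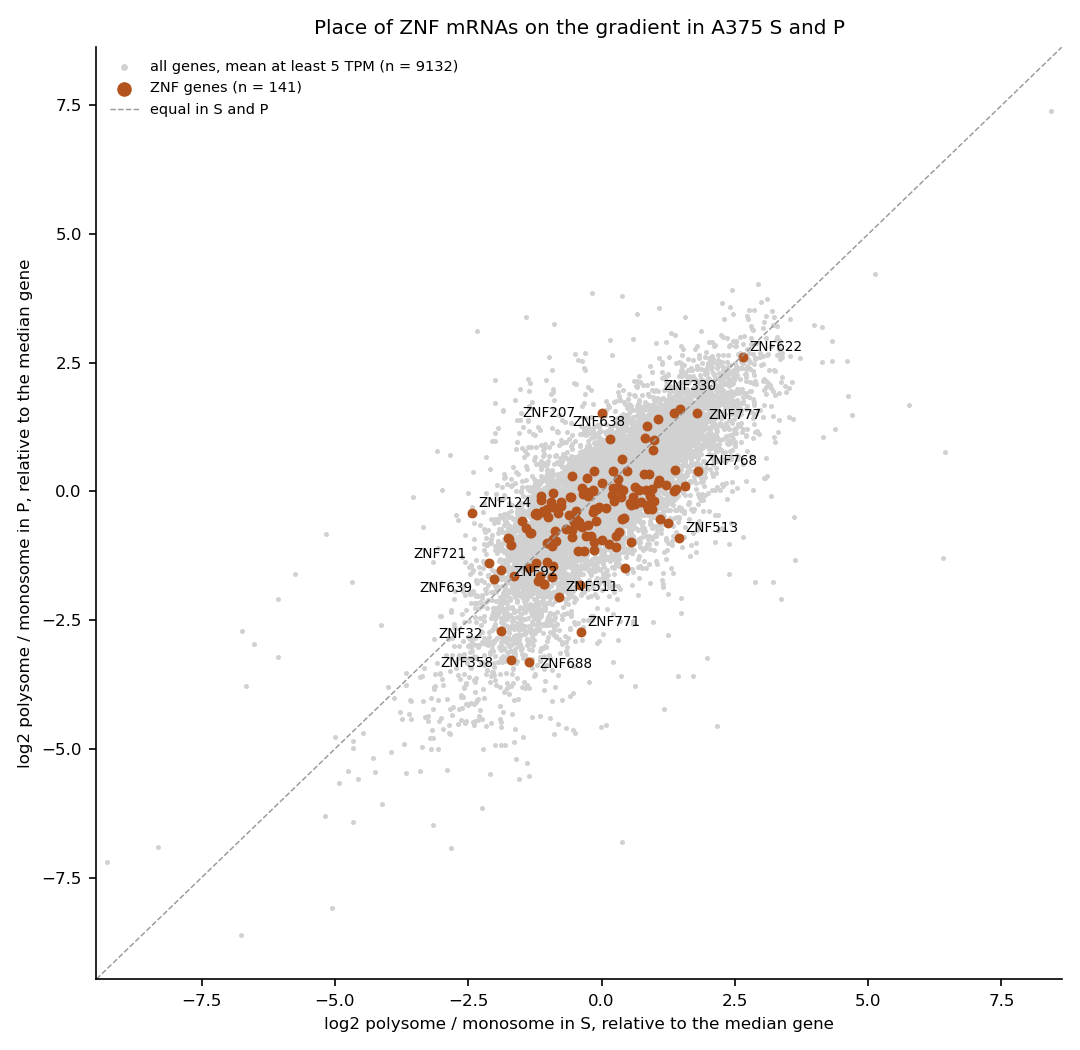
Log2 polysome-to-monosome ratio in S (x axis) and in P (y axis), each relative to the median gene, for 141 ZNF genes and all genes averaging 5 TPM or more. ZNF622 lies at the upper right with 2.65 in S and 2.61 in P, ZNF688 and ZNF358 at the bottom with -3.30 and -3.28 in P, and ZNF124 far left of the dashed line of equal values.

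ZNF622 was the most polysomal member in both states. It had 176 TPM in polysomes and 14.2 in monosomes of S (2.65), and 205 and 12.6 TPM in P (2.61). ZNF330 had 70.7 TPM in polysomes and 13.0 in monosomes of S (1.47), and 114 and 14.2 TPM in P (1.598). The KRAB gene ZNF777 had 11.8 TPM in polysomes and 0.986 in monosomes of S (1.80), and 17.5 and 1.59 TPM in P (1.52), so its ratios rest on monosome values near 1 TPM. With ZNF282 (1.36 in S and 1.53 in P) and ZNF316 (1.06 and 1.41) these were the 5 members higher in both states (3.55% of members, against 13% of all genes). The ribosome factor ZNF593, by contrast, was below the median gene in both (-0.55 in S, with 60.4 TPM in polysomes and 47.7 in monosomes, and -0.89 in P, with 59.3 and 43.9 TPM).

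Among the other upper 8 of S were ZNF768 (28.2 TPM in polysomes and 3.51 in monosomes, 1.81), ZNF446 (15.7 and 2.06 TPM, 1.56), ZNF513 (31.9 and 5.51 TPM, 1.45), ZNF830 (36.0 and 6.59 TPM, 1.40) and ZNF274 (13.96 and 2.12 TPM, 1.37). None of these 5 reached 2-fold in P, where their values lay between -0.90 and 0.42. In P, the other upper members were ZNF207 (201 TPM in polysomes and 27.1 in monosomes, 1.53), ZNF638 (36.5 and 5.24 TPM, 1.27) and ZNF687 (10.4 and 1.25 TPM, 1.03).

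The 8 lowest members were mostly different genes in S and in P, although several of them were lower by 2-fold or more in both states. In P it was made of ZNF688 (4.54 TPM in polysomes and 21.0 in monosomes, -3.30), ZNF358 (7.16 and 31.0 TPM, -3.28), ZNF771 (5.22 and 15.6 TPM, -2.73), ZNF32 (6.85 and 19.8 TPM, -2.72), ZNF511 (21.3 and 36.3 TPM, -2.06), ZNF576 (9.46 and 13.7 TPM, -1.81), ZNF655 (22.01 and 31.2 TPM, -1.80) and ZNF689 (5.00 and 7.39 TPM, -1.80). In all 8 of these genes polysome TPM was below monosome TPM in the P libraries. In S the lowest was ZNF124 (3.45 TPM in polysomes and 12.01 in monosomes, -2.43), followed by ZNF721 (4.86 and 12.7 TPM, -2.12), ZNF639 (9.13 and 21.2 TPM, -2.02), ZNF32 (13.6 and 28.2 TPM, -1.89), ZNF92 (2.89 and 6.73 TPM, -1.88), ZNF260 (3.99 and 8.08 TPM, -1.75), ZNF12 (7.90 and 15.04 TPM, -1.74) and ZNF770 (8.15 and 15.1 TPM, -1.70). ZNF32 was in both groups of 8. From the P group, ZNF688 (-1.36), ZNF358 (-1.69), ZNF655 (-1.08) and ZNF689 (-1.08) were lower by 2-fold or more in S too. ZNF771, ZNF511 and ZNF576 were not. From the S group, ZNF721 (-1.38), ZNF639 (-1.70), ZNF92 (-1.52) and ZNF770 (-1.04) were lower by 2-fold or more in P too. ZNF124, ZNF260 and ZNF12 were not. In all, 15 members were lower in both states (10.6%, against 12.7% of all genes).

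Polysomes were also set against input, which avoids the low monosome values. In S, 7 members were higher (4.96%, against 10.7% of all genes) and 12 lower (8.51%, against 11.6%), with a median of -0.09. In P, none was higher, where 0.493% of all genes were, and 13 were lower (9.22%, against 11%), with a median of -0.22. From 5 to 20 TPM, 3 members were higher and 7 lower in S (5.85% and 11.1% of all genes), and 0 and 9 in P (0.363% and 9.95%). ZNF622 and ZNF584 were the highest in S (1.80 each), ZNF584 through its low S input, and ZNF32 the lowest (-1.60), with 13.6 TPM in S polysomes and 40.6 in S input.

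The ratio in S was then set against that in P. In S, 22 members were higher (15.6%, against 12.7% of all genes) and 5 lower (3.55%, against 7.45%), with a median of 0.13. From 5 to 20 TPM, 17 of 113 members were higher and 4 lower (12.8% and 8.52% of all genes). As deposited, 9 were higher and 21 lower (7.26% and 17% of all genes), so the direction of the family as a whole rests on the median gene. Ratios in S and P had a Spearman rho of 0.64 across the 141 members and 0.76 across all genes; each value shares its libraries with every other gene.

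ZNF513 was the highest (2.26). It had 31.9 TPM in polysomes and 5.51 in monosomes of S, against 10.4 and 7.60 TPM in P, and lay above the median gene in S (1.45) and below it in P (-0.90). Its span overlaps SNX17 on the opposite strand. ZNF771 followed (2.25), with 5.83 TPM in polysomes and 3.83 in monosomes of S and 5.22 and 15.6 TPM in P: polysome levels were close and monosome levels apart. ZNF688 (1.85; 15.7 and 22.2 TPM in S, 4.54 and 21.0 TPM in P) showed the reverse, with close monosome levels and polysome levels apart. ZNF692 (1.83) had 10.6 TPM in polysomes and 3.59 in monosomes of S, against 19.6 and 22.1 TPM in P. ZNF222 (1.77), ZNF865 (1.54), ZNF358 (1.497) and ZNF232 (1.44) completed the upper 8. ZNF222 had 5.07, 1.76 and 3.48 TPM in P input, monosomes and polysomes, and 14.2 TPM in S polysomes. It passed the limit on the mean through S, so the filter favours its direction.

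The lowest was ZNF124 (-2.10; chromosome 1, 247121975 to 247172016). It had 3.45 TPM in polysomes and 12.01 in monosomes of S, against 6.25 and 2.92 TPM in P, and the S monosome library was the 1 library that stood apart, since the other 5 lay between 2.92 and 6.25 TPM. With a mean of 5.69 TPM, ZNF124 passed the limit through that library, so the filter favours its direction. ZNF207 was next (-1.62), with 85.8 TPM in polysomes and 45.9 in monosomes of S against 201 and 27.1 TPM in P. ZNF217 (-1.13), ZNF148 (-1.06) and ZNF644 (-1.02) were the others past 2-fold, and ZNF503 (-0.96), ZNF598 (-0.95) and ZNF260 (-0.94) closed the lowest 8. ZNF148, which binds GC-rich promoters, had 7.51 TPM in polysomes and 9.07 in monosomes of S, against 11.1 and 4.46 TPM in P. Of the 22 listed transcription factors, 3 were lower and none higher on this measure (median -0.38). Of the 13 listed genes with roles outside of DNA binding, 1 was lower, ZNF207, and 1 higher, ZNF830 (median -0.38). These are 13.6% and 0% of the factors and 7.69% each way of the 13 genes, where 7.45% of all genes were lower and 12.7% higher.

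Base composition of the coding sequence varied widely among members, from 36.06% to 74.97% GC, and went with the change on the gradient. The 55 members of at least 55% GC had a median ratio change of 0.65, with 14 higher in S and none lower; the 40 of 45% to 55% had a median of 0.07, with 6 and 2; and the 46 under 45% had a median of -0.25, with 2 and 3. All genes split in the same way had medians of 0.23, -0.13 and -0.32. Of all genes of at least 55% GC, 16.7% were higher and 3.59% lower (members 25.5% and 0%), from 45% to 55% GC 8.03% and 7.18% (members 15% and 5%), and under 45% GC 6.45% and 13.4% (members 4.35% and 6.52%). Spearman rho between GC and the ratio change was 0.40 across members (Pearson r 0.40, n = 141) and 0.31 across 8642 genes (r 0.27). These correlations run across genes of the same 4 libraries and carry no test, and the GC classes were chosen after the values were seen.

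**Figure D4:**
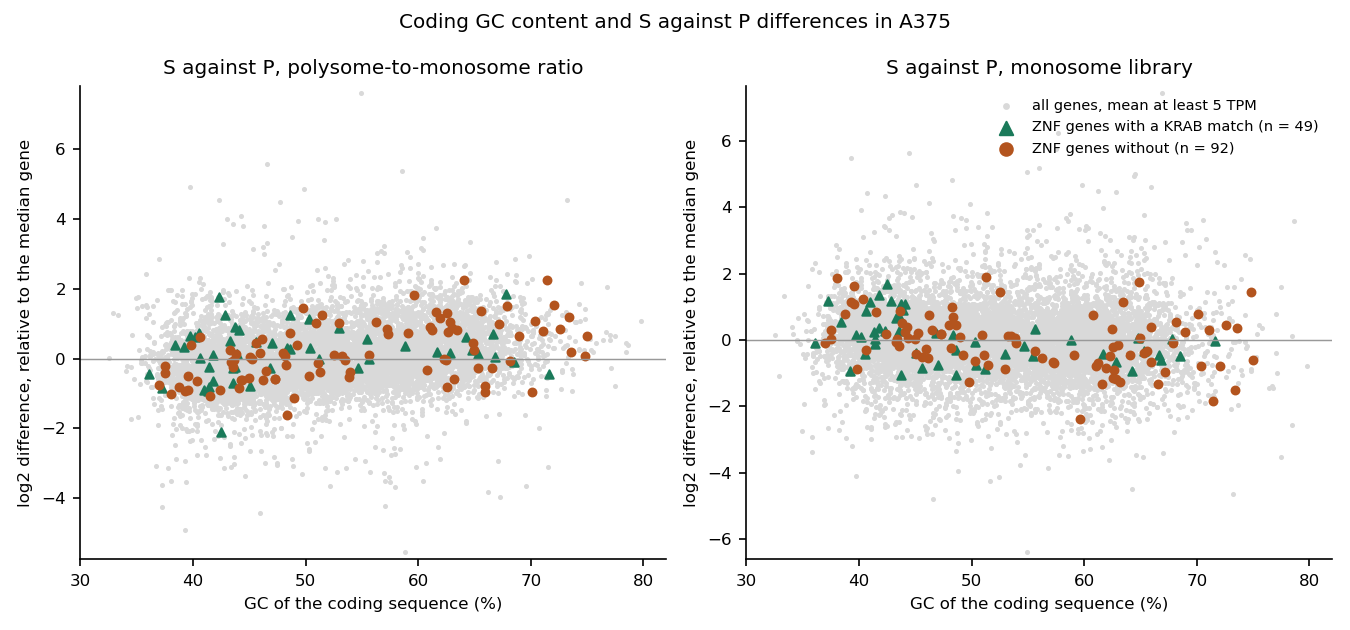
Log2 difference of S against P relative to the median gene, for the polysome-to-monosome ratio and for the monosome library, against GC content (%) of the coding sequence. Triangles are ZNF genes with a KRAB match, circles those without, and grey points all genes; the ZNF points climb with GC for the ratio (rho 0.40) and fall with GC in monosomes (rho -0.38).

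The S against P difference was next set against GC in each fraction. In monosomes, rho with GC was -0.38 across members and -0.11 across all genes, and members under 45% GC had a median of 0.34, with 12 higher and 1 lower (26.1% and 2.17%, where 15% and 8.76% of all genes under 45% GC were). Members of at least 55% GC had a median of -0.45, with 3 higher and 8 lower (5.45% and 14.5%, where 12% and 14.6% of all genes of that GC were). In polysomes rho was 0.04 across members and 0.12 across all genes, so its size was larger in monosomes across members and slightly larger in polysomes across all genes. Transcript length ran the other way: rho with the ratio change was -0.48 across members and -0.40 across all genes. The number of fingers had a rho of 0.01 with it. Members with a KRAB match had a median ratio change of 0.19 and those without 0.07, while GC differed between them (medians of 45.02% and 53.1%).

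Neighbouring genes were described next, taking runs of at least 4 members with gaps under 0.5 Mb, a choice made after the values were seen. There were 8 such runs. The run from ZNF579 to ZNF444 on chromosome 19 (55576770 to 56160893, 8 members) had the highest median in input, 0.84, with 7 of 8 members above the median gene and ZNF580 and ZNF524 past 2-fold (25%, against 14.9% of all genes). Its members have 62.44% to 74.97% coding GC. Of all genes of at least 55% GC, 22.4% were higher in S input, with a median of 0.24. Position and GC were not separated for this run. The run from ZNF134 to ZNF446, on the same chromosome (57614233 to 58481230, 8 members), had a median of -0.31, with 7 of 8 below the median gene and ZNF446 at 1.14 (8.62 TPM in S input and 4.06 in P input). Runs on the same chromosome thus lay on both sides of the median gene.

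On chromosome 16, the run from ZNF771 to ZNF668 (30407297 to 31074320, 8 members) stood low on the gradient in P, with 5 of 8 members lower (62.5%, against 21% of all genes) and a median of -1.51. In S its median was -0.71, with 4 lower (50%, against 19.5%) and 2 higher (25%, against 21.2%), and the ratio change had a median of 0.90, with 7 of 8 members above the median gene and 3 higher by 2-fold or more (37.5%, against 12.7%). It holds ZNF771, ZNF688 and ZNF689 from the lower end of P and ZNF768 from the upper end of S. Its 8 members have 61.5% to 71.4% coding GC. The 55 members of at least 55% GC had medians of -0.26 in P and 0.65 for the ratio change. Position and GC were not separated. The runs on chromosome 7 showed no member past 2-fold in input. Over all of chromosome 19, the 41 members had a median of 0.12 in input and 0.39 for the ratio change, with 9 higher and none lower for the ratio (22% and 0%). The 100 other members had medians of -0.09 and 0.06, with 13 higher and 5 lower for the ratio (13% and 5%), near the 12.7% and 7.45% of all genes.

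**Figure D5:**
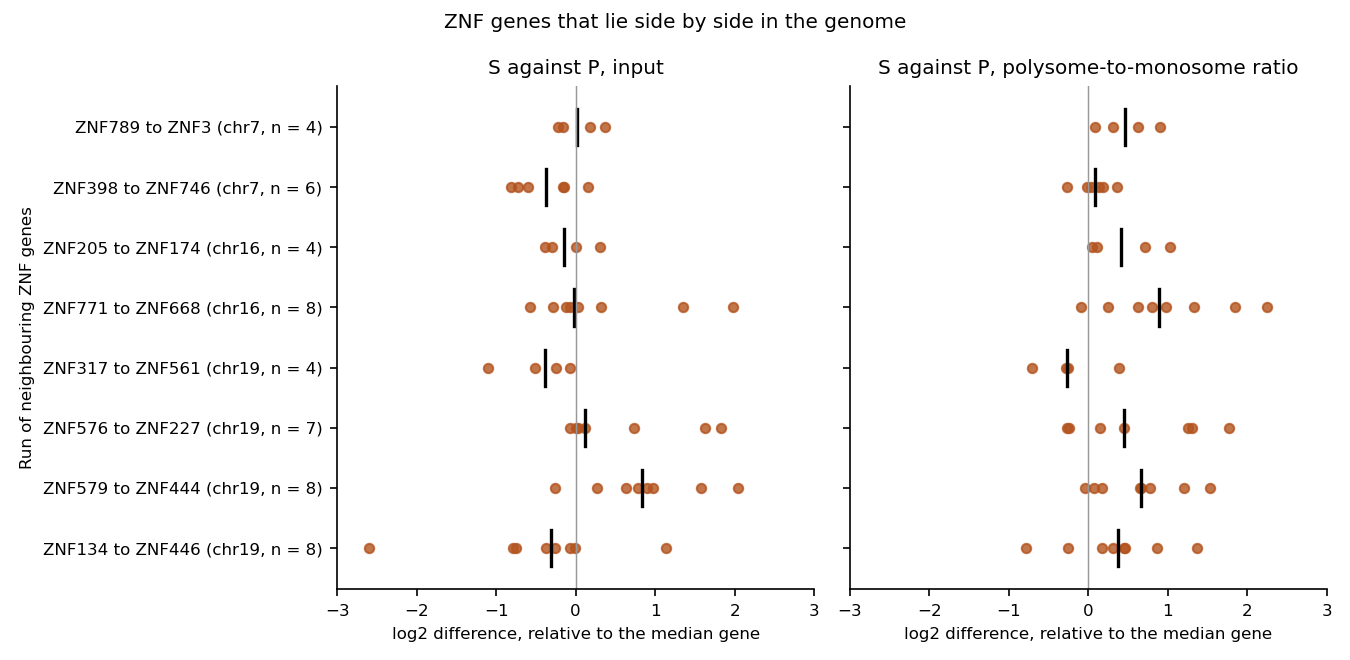
Log2 difference of S against P relative to the median gene, in input and for the polysome-to-monosome ratio, for 8 runs of neighbouring ZNF genes. Points are genes and bars the median of a run; the run from ZNF579 to ZNF444 has the highest median in input (0.84) and that from ZNF771 to ZNF668 the highest for the ratio (0.90).

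Other zinc finger families had fewer genes at 5 TPM or more. In input, the 16 ZBTB genes had a median of 0.27 (1 higher), the 6 ZSCAN genes -0.25, the 6 ZFP genes -0.05 (1 higher), the 2 ZKSCAN genes 0.28, the 11 KLF and SP genes -0.29 (2 higher and 1 lower) and the 7 ZNF genes with a letter suffix -0.21 (1 higher). For polysome against monosome in P, their medians were -0.29, -0.06, -0.65, 0.38, -0.13 and -1.02, so the ZNF value of -0.38 lay within the range of its relatives. The KRAB machinery had medians of 0.86 in S and 0.76 in P, with 8 of 20 genes higher in each (40%, against 21.2% of all genes in S and 18.3% in P).

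The genes of highest mean, beyond those described, were ZNF706 (85.8 TPM in S input and 112 in P input), ZNF664 (46.1 and 64.8 TPM) and ZNF24 (36.9 and 35.5 TPM), the last a SCAN-domain factor, and all were within 2-fold of the median gene in input. Gene spans can overlap: 83 of the 141 members overlap an annotated gene on the opposite strand and 47 one on the same strand, among them ZNF32, which overlaps its annotated antisense genes, and for these the split of reads is less certain.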

How the data were processed

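The authors deposited TPM values per gene, 1 table per cell line, and only the A375 table (16782 genes, 6 libraries) entered the comparisons. Poly-T beads selected the mRNA and random hexamers primed it, per the labels' protocols. The human build was GRCh38 (hg38), per the submitters' processing notes. Not given in the sources used here are aligner, quantifier, annotation and strandedness. The listed genes sum to 66.6% to 90.1% of 1000000 TPM per library, and depth is unknown. Differences were computed as log2(TPM + 1) with pandas 2.3.3 under Python 3.11.15, relative to the median of genes averaging 5 TPM or more, and tested on simulated data. Groups follow the sample titles. With 1 library per group no test was made. Lengths, GC and patterns come from translated coding sequences of GENCODE release 29, not from the protein table planned, and the planned comparison with genes of equal TPM and protein length was not made. Members and lists were chosen with earlier results of these data known. Named genes are the 8 highest and 8 lowest members per comparison, 2 role lists, the 10 highest means, the 3 genes on each side of the limit, and TRIM28, SETDB1 and machinery genes past 2-fold in input; run ends were named after their values were seen. The alternatives were pseudocount, centring, limit and fold.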

Additional observations from a re-analysis of the deposited data

How the results depend on the processing

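Counts of members past 2-fold moved by over 1.5 times under several settings, and the cause was not tested. Shares of all genes were not computed for the other pseudocounts, the 3-fold cut and the limits of 10 TPM, 1 TPM and none. Those counts therefore cannot show whether the family or all genes moved. A pseudocount of 0.1 TPM gave 11 members lower for the ratio of S against that of P. One of 5 TPM gave 2 lower in input, 7 higher and 15 lower on the gradient in S, 5 higher in P, and 7 higher and 2 lower for the ratio change. The median over genes of at least 1 TPM gave 29 higher and 19 lower in S (26.7% and 14.3% of the 9132 genes). Values as deposited gave 17 lower in input (21.5% of all genes). In S they gave 56 higher and 3 lower (46.4% and 4.46% of all genes, median of the members 0.69). In P they gave 64 and 4 (60.4% and 6.25%, median of the members 0.93), and for the ratio change 9 and 21 (7.26% and 17%). Of the named genes, 1 past 2-fold changed side as deposited: ZNF770, at -1.04 in P relative to the median gene, was at 0.28. Members not named also changed side in P, such as ZNF7 (-1.09 and 0.23) and ZNF195 (-1.15 and 0.17). At 3-fold there were 5 and 1 in input, 3 and 10 in S, 2 and 13 in P, and 5 and 2 for the ratio change. With a limit of 10 TPM (63 members), 4 were lower in input, 7 higher and 13 lower in S, 16 lower in P, and 12 higher and 2 lower for the ratio change. With 1 TPM (332 members) there were 28 and 19 in input, 75 lower in S, 83 lower in P, and 46 and 13 for the ratio change. With no limit (401 members) there were 30 and 20 in input, 98 lower in S, 129 lower in P, and 47 and 13 for the ratio change. In P the median gene is at 1.31, so a gene near 0 TPM in both fractions is counted as lower by computation alone. The looser limits can let in such genes, so their counts lower in P are not read as a place on the gradient. Members of 5 to 20 TPM, a range chosen after seeing the data, gave 9 higher in input and 4 higher in P. No paired analysis was possible because each group has 1 library and the labels carry no replicate number. No replicate could be left out.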
